A study of Mus musculus with 7 samples.

Results

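Foxp1 and Foxp2 are 2 of the 297 genes of an in situ panel that was read in mouse brain, and both were described across kinds of neurons and across sections. The genes were taken by name. Neurons were taken by their own transcript counts. The VGLUT2 gate held cells with at least 5 transcripts of Slc17a6, the vesicular glutamate transporter of most thalamic and hypothalamic excitatory neurons. The VGLUT1 gate held cells with at least 5 transcripts of Slc17a7, the transporter of most cortical excitatory neurons, and at most 2 of Slc17a6. The striatal type gate held cells with at least 5 transcripts of Gad1 and Gad2 together, which encode the enzymes of GABA synthesis, and at least 3 of Ppp1r1b, a signalling protein abundant in striatal projection neurons. Of 384076 cells, 43785 met the VGLUT2 gate, 115625 the VGLUT1 gate and 51139 the striatal type gate. The striatal type gate shared 2281 cells with the VGLUT2 gate and 7696 with the VGLUT1 gate.

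Foxp1 and Foxp2 encode forkhead transcription factors of the same subfamily, which bind DNA as dimers and can pair with each other. In the mouse forebrain both are known from striatal projection neurons. Foxp1 is also known from pyramidal neurons of several cortical layers, and Foxp2 from deep cortical layers and from parts of the thalamus. Human FOXP2 is known for its link to a disorder of speech and language.

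Brains of wild-type mice were snap frozen and cut at 10 µm, and 7 hemisections were measured with Xenium, which decodes single transcripts of a fixed panel by imaging and assigns them to segmented cells. Anterior sections (n = 2, replicates 1 and 2) lay at bregma -0.58 mm, intermediate sections (n = 2, replicates 1 and 2) at -0.70 to -0.82 mm and posterior sections (n = 3, replicates 1, 3 and 4) at -0.94 mm. Replicates 1 and 2 were on slide 1, and replicates 3 and 4 on slide 2, which held posterior sections alone. No treatment, age or sex was given in the labels used here, and they do not say that replicates were separate animals, so p-values measure the spread between these sections.

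Sections held 17438577 to 23432215 transcripts, and their median cells held 278 to 390. Control probes, which have no target in the tissue, gave 0.656 counts per cell in all. Up to 6 different control probes were seen in 1 cell, so a single control probe gave at most 0.109 counts per cell on average. Over all cells Foxp1 gave 2.99 transcripts per cell and Foxp2 gave 0.994. Foxp1 ranked number 26 and Foxp2 number 115 of the 297 genes by transcripts per cell. At least 1 transcript of Foxp1 was found in 71.5% of cells and of Foxp2 in 29.5%. Cells of an oligodendrocyte class, which served as a reference for transcripts from neighbouring cells, held Foxp1 in 47.4% ± 3.17 and Foxp2 in 14.7% ± 2.7 of cells (SD, n = 7 sections), at a median of 142 transcripts per cell.

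The gates were checked against markers they did not use. Slc17a7 gave 8.04 ± 1.19 transcripts per cell (SD, n = 7) in the VGLUT2 gate. More than 2 transcripts of Slc17a7 were found in 18377 of the VGLUT2 gate's cells (42.0%), so the gate was not made up of cells with Slc17a6 alone. Gad1 stood at 4.94 ± 0.448 per cell in the VGLUT1 gate. Results that changed call or direction are therefore also given for cells of 1 transmitter type: at most 2 transcripts of Slc17a7 and at most 2 of Gad1 and Gad2 together in the VGLUT2 gate (15817 cells), at most 2 of Gad1 and Gad2 together in the VGLUT1 gate (65856 cells), and at most 2 of Slc17a6 and Slc17a7 together in the striatal type gate (39005 cells). In those VGLUT2 cells Slc17a7 stood at 0.356 ± 0.109 and Gad1 at 0.258 ± 0.0357 per cell. That restriction was chosen after the markers had been seen.

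Both genes were highest in striatal type cells. Foxp1 ranged there from 6.45 to 8.81 transcripts per cell over the 7 sections, with a median of 6.94. In the VGLUT2 gate it ranged from 3.11 to 4.26 (median 3.39), and in the VGLUT1 gate from 3.30 to 3.95 (median 3.53). Each striatal type value lay above each value of the other gates, which overlapped each other. Foxp2 ranged from 2.64 to 2.98 (median 2.76) in striatal type cells, from 0.652 to 1.65 (median 1.37) in the VGLUT2 gate and from 0.947 to 1.18 (median 1.05) in the VGLUT1 gate. Here too the striatal type values stood apart from all others. The highest level of each gene was thus in the same gate, whereas the order of the other gates was not settled.

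These differences were tested on counts summed per section and gate with edgeR's quasi-likelihood test over all 297 genes. Foxp1 was higher in striatal type than in VGLUT2 cells by 1.24 ± 0.09 on the log2 scale (SE, adjusted p = 1.30e-09), which is 2.35-fold. Against VGLUT1 cells it was higher by 1.12 ± 0.09 (edgeR, adjusted p = 5.09e-09). Foxp2 was higher in striatal type than in VGLUT2 cells by 1.48 ± 0.15 (edgeR, adjusted p = 8.20e-08) and than in VGLUT1 cells by 1.51 ± 0.15 (edgeR, adjusted p = 6.88e-08), the latter being 2.85-fold. The gates differ in most of the panel: 81.8% of genes passed the threshold between striatal type and VGLUT2 cells, 77.1% between striatal type and VGLUT1 cells, and 82.5% between VGLUT2 and VGLUT1 cells. A call alone therefore says little about either gene. Between VGLUT2 and VGLUT1 cells, neither Foxp1 (-0.11 ± 0.09, edgeR, adjusted p = 0.246) nor Foxp2 (0.03 ± 0.14, edgeR, adjusted p = 0.844) passed. Among cells of 1 transmitter type Foxp1 was lower in VGLUT2 than in VGLUT1 cells, at -0.41 ± 0.10 (edgeR, adjusted p = 0.00130), and Foxp2 stood at 0.32 ± 0.18 (edgeR, adjusted p = 0.106). There 77.1% of genes were called between these gates, 78.1% between striatal type and VGLUT2 cells and 80.5% between striatal type and VGLUT1 cells. Striatal type cells kept the higher level against both, by 1.82 and 1.41 for Foxp1 and by 1.30 and 1.63 for Foxp2 (edgeR, highest adjusted p = 3.75e-06).

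**Figure D1:**
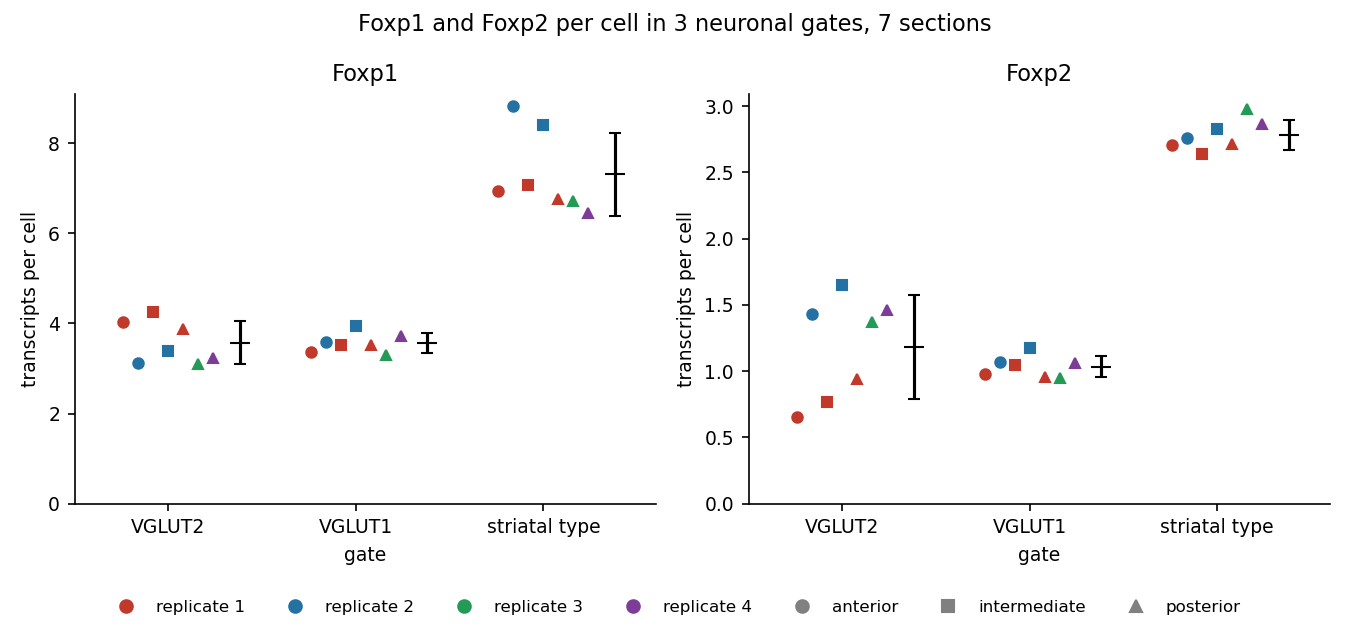
Foxp1 (left) and Foxp2 (right) in transcripts per cell, one point per section, for the VGLUT2, VGLUT1 and striatal type gates; colour gives the replicate number, shape the position, and the black bar the mean and SD of 7 sections. Striatal type values start at 6.45 for Foxp1 and 2.64 for Foxp2, above all others, and in the VGLUT2 gate the 3 sections of replicate 1 have the lowest Foxp2 and the highest Foxp1.

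Foxp2 in the VGLUT2 gate differed between replicate 1 and the other sections. The 3 sections of replicate 1 gave 0.652 (anterior), 0.764 (intermediate) and 0.943 (posterior) transcripts per cell. The sections of replicate 2 gave 1.43 (anterior) and 1.65 (intermediate), and posterior replicates 3 and 4 gave 1.37 and 1.47. Replicate 1 was low at all 3 positions and did not overlap the other sections. Within replicates 1 and 2 the intermediate section was above the anterior one, and the posterior section of replicate 1 was its highest. Foxp1 ran the other way in the same cells: 4.02, 4.26 and 3.88 in the anterior, intermediate and posterior sections of replicate 1, against 3.11 to 3.39 in the other 4. In VGLUT1 cells replicate 1 gave 0.959 to 1.05 for Foxp2, within the range of the other sections. Among striatal type cells it gave 2.64 to 2.72, just below the other 4 sections at 2.76 to 2.98. In VGLUT2 cells of 1 transmitter type Foxp2 was again lowest in replicate 1, at 0.805, 0.887 and 1.13, against 1.87 to 2.32 elsewhere. Without the 3 sections of replicate 1, Foxp2 in VGLUT2 minus VGLUT1 cells stood at 0.43 on the log2 scale, against 0.03 with all sections. These sections were left out after this pattern in the same values had been seen, so the 0.43 is a description and not a test.

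The makeup of the VGLUT2 gate differed between the same sections. Cells with at most 2 transcripts of Gad1 and Gad2 together were classed by the highest of 7 marker genes, at 3 transcripts or more. Cells with a tie, and other cells of the gate, had no class. Cells in which Necab1, a neuronal calcium-binding protein, was the highest of 7 marker genes made up 7.36%, 9.93% and 15.2% of the gate in the anterior, intermediate and posterior sections of replicate 1. In the other sections they made up 19.5% (anterior replicate 2), 21.8% (intermediate replicate 2), 10.1% (posterior replicate 3) and 19.5% (posterior replicate 4). Foxp2 within this Necab1 class was lower in replicate 1 too: 1.50, 1.82 and 2.63 transcripts per cell in anterior, intermediate and posterior sections, against 3.20, 3.57, 4.44 and 3.89 in anterior replicate 2, intermediate replicate 2, posterior replicate 3 and posterior replicate 4. Cells in which Car4, a carbonic anhydrase, was highest made up 12.1% to 16.5% of the gate in replicate 1 and 7.30% to 9.33% in the others. Sections of replicate 1 had medians of 488 to 524 transcripts per cell in the gate, and the others 485 to 537. The part of the gate's makeup in the Foxp2 difference was not tested.

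The ratio of Foxp2 to Foxp1 transcripts depends on how well each probe set reads its gene, so only differences between cells were compared. In VGLUT1 cells its log2 was narrow, from -1.88 to -1.75 (median -1.79). Striatal type cells ran from -1.68 to -1.17 (median -1.36), above every VGLUT1 value. In VGLUT2 cells it ran from -2.63 to -1.04 (median -1.18). The 3 sections of replicate 1 lay at -2.63, -2.48 and -2.04, below every VGLUT1 section, and the other 4 lay at -1.18 to -1.04, above every VGLUT1 section. Of these 4, posterior replicate 3 at -1.18 lay just below the highest striatal type values of -1.17. Striatal type cells had a higher ratio than VGLUT1 cells by 0.40 ± 0.22 on the log2 scale (SD of the differences, higher in 7 of 7 sections, two-sided exact permutation test by sign flips, p = 0.0156, adjusted p = 0.0469 over 3 pairs). With 7 sections 0.0156 is the smallest p this test can give. Among cells of 1 transmitter type this difference was 0.23 ± 0.27 (5 of 7 sections, exact permutation test, adjusted p = 0.141). VGLUT2 minus VGLUT1 cells gave 0.13 ± 0.69 (4 of 7 sections, exact permutation test, adjusted p = 0.688), and with 1 transmitter type 0.71 ± 0.85 (5 of 7, exact permutation test, adjusted p = 0.141). Striatal type minus VGLUT2 cells gave 0.28 ± 0.74 (4 of 7, exact permutation test, adjusted p = 0.539), which turned to -0.47 ± 0.84 with 1 transmitter type (above 0 in 3 of 7, exact permutation test, adjusted p = 0.203). By replicate number the striatal type to VGLUT1 difference was 0.46, over 4 numbers, where 0.125 is the smallest exact permutation p.

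**Figure D2:**
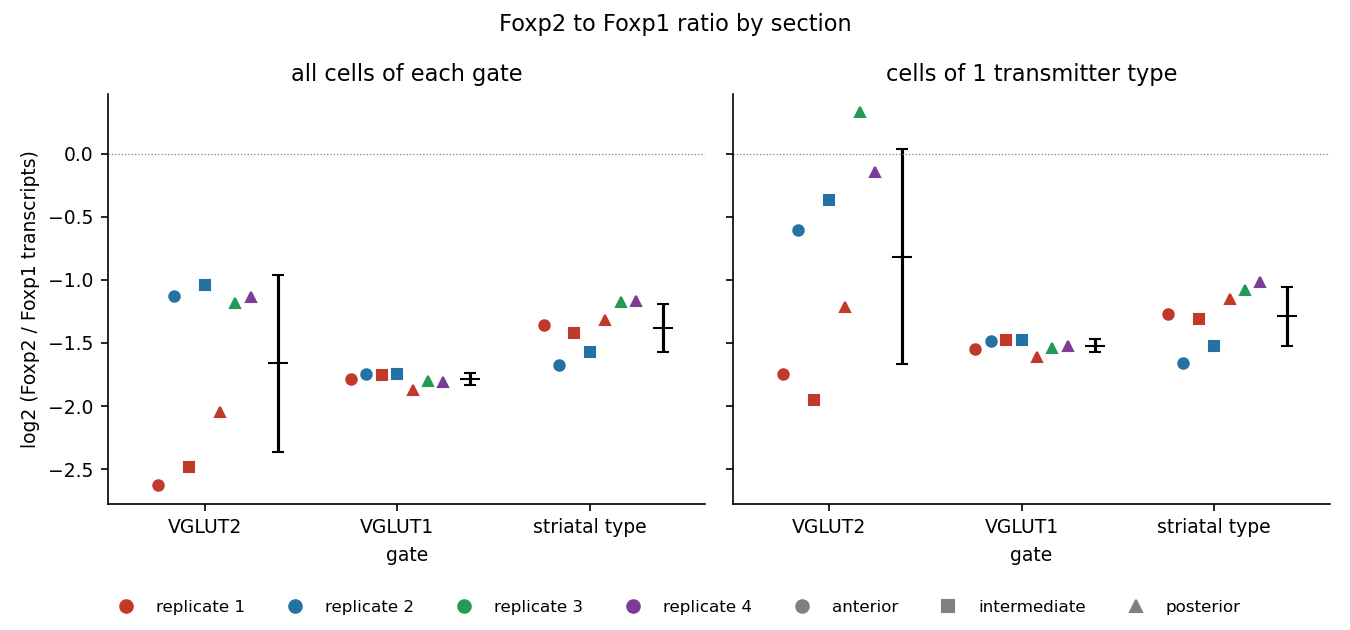
Log2 of the Foxp2 to Foxp1 transcript ratio in each of 7 sections by gate, for all cells of the gate (left) and for cells of 1 transmitter type (right); colour gives the replicate number, shape the position, and the black bar the mean and SD. VGLUT1 sections lie within -1.88 to -1.75 on the left, whereas VGLUT2 sections of replicate 1 lie at -2.63 to -2.04 and the others at -1.18 to -1.04.

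Within each gate the genes differed in how they were spread over cells. In VGLUT1 cells Foxp1 was at 0 in 14.1% ± 1.51 (SD, n = 7) of cells and at 3 to 9 transcripts in 46.9% ± 2.0. Foxp2 was at 0 in 71.6% ± 2.06 of the same cells, and at 10 to 19 in 2.49% ± 0.293. The 10% of cells with the most Foxp2 held 74.1% ± 1.94 of the gate's Foxp2 transcripts, against 30.3% ± 0.778 for Foxp1. In VGLUT2 cells the top 10% held 66.3% ± 5.95 of Foxp2 and 39.2% ± 1.65 of Foxp1. For striatal type cells these shares were 42.5% ± 1.89 and 26.7% ± 1.12. This share rises as the mean of a gene falls, and Foxp2 had the lower mean in each gate. The variance of the count divided by its mean was 6.41 ± 0.172 for Foxp2 and 3.0 ± 0.0985 for Foxp1 in VGLUT1 cells, with Foxp2 above Foxp1 in each section. In VGLUT2 cells it was 6.01 ± 1.05 and 5.39 ± 0.390, and Foxp1 had the higher value in the 3 sections of replicate 1. Striatal type cells gave 5.36 ± 0.558 and 4.74 ± 0.408, with Foxp1 higher in the anterior and intermediate sections of replicate 2. Foxp2 was thus the more uneven gene by both measures in every section of the VGLUT1 gate alone, as a description with no test.

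Foxp1 and Foxp2 were found in the same cell in 57.9% ± 3.07 of striatal type cells (SD, n = 7), in 27.5% ± 4.77 of VGLUT2 cells and in 25.7% ± 1.94 of VGLUT1 cells. Foxp1 was present in 94.5% ± 1.32 of striatal type cells with Foxp2. The figure was 80.9% ± 2.30 in VGLUT2 cells and 90.4% ± 0.965 in VGLUT1 cells. Foxp2 without Foxp1 was the least common pattern in each gate: 3.36% ± 0.707, 6.60% ± 1.87 and 2.72% ± 0.305 in striatal type, VGLUT2 and VGLUT1 cells. With every cell thinned to 200 transcripts, which left out 1973, 1414 and 8784 shallower cells in that order, both genes were found together in 41.9% ± 2.98, 12.5% ± 2.91 and 15.1% ± 1.11.

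Deeper cells show more of every gene, so co-detection was measured as an odds ratio within 10 depth strata of each section. An odds ratio of 1 would mean that finding 1 gene says nothing about the other. In striatal type cells it ranged from 1.59 to 3.31 over sections (median 2.29), in VGLUT1 cells from 1.35 to 1.59 (median 1.50) and in VGLUT2 cells from 1.17 to 1.41 (median 1.32). The highest striatal type value came from anterior replicate 2 and the lowest from posterior replicate 1. The 3 sections of replicate 1 were the lowest striatal type values, at 1.99 (anterior), 1.74 (intermediate) and 1.59 (posterior), against 2.29 to 3.31 in the others. On the log2 scale the means were 1.14 ± 0.36, 0.56 ± 0.10 and 0.36 ± 0.10 (SD). Each was above 0 in 7 of 7 sections (two-sided exact permutation test by sign flips, adjusted p = 0.0156 for all 3 gates). The odds ratio was higher in striatal type than in VGLUT1 cells by 0.57 ± 0.33 and than in VGLUT2 cells by 0.78 ± 0.33 (7 of 7 sections each, exact permutation test, adjusted p = 0.0156). It was lower in VGLUT2 than in VGLUT1 cells, by -0.21 ± 0.16 (7 of 7 sections, exact permutation test, adjusted p = 0.0156). At doubled gate minimums these calls were lost, at 0.31 and 0.33 for striatal type against VGLUT1 and VGLUT2 cells (exact permutation test, adjusted p = 0.539 for both) and -0.016 for VGLUT2 against VGLUT1 cells (0.891). In cells that met 1 gate only they were lost too, at 0.51 (adjusted p = 0.0938), 0.32 (0.188) and 0.19 (0.234) in that order by the exact permutation test, and striatal type against VGLUT1 cells gave 0.25 with no depth strata (adjusted p = 0.172). Striatal type and VGLUT1 cells are the same cells with 1 transmitter type. There the 0.51 ± 0.44 passed (6 of 7 sections, exact permutation test, adjusted p = 0.0469). The adjusted p differs because the adjustment also covers the other pairs of gates.

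The order of the excitatory gates turned with the cells used. In VGLUT2 cells of 1 transmitter type the log2 odds ratio was 1.10 ± 0.26 (7 of 7 sections, exact permutation test, adjusted p = 0.0156). There it was higher than in VGLUT1 cells by 0.52 ± 0.34 (7 of 7 sections, exact permutation test, adjusted p = 0.0469) and differed from striatal type cells by -0.01 ± 0.55 (exact permutation test, adjusted p = 0.969). Thinned to 200 transcripts with no strata, VGLUT2 cells of the full gate gave 0.05 (exact permutation test, adjusted p = 0.344).

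**Figure D3:**
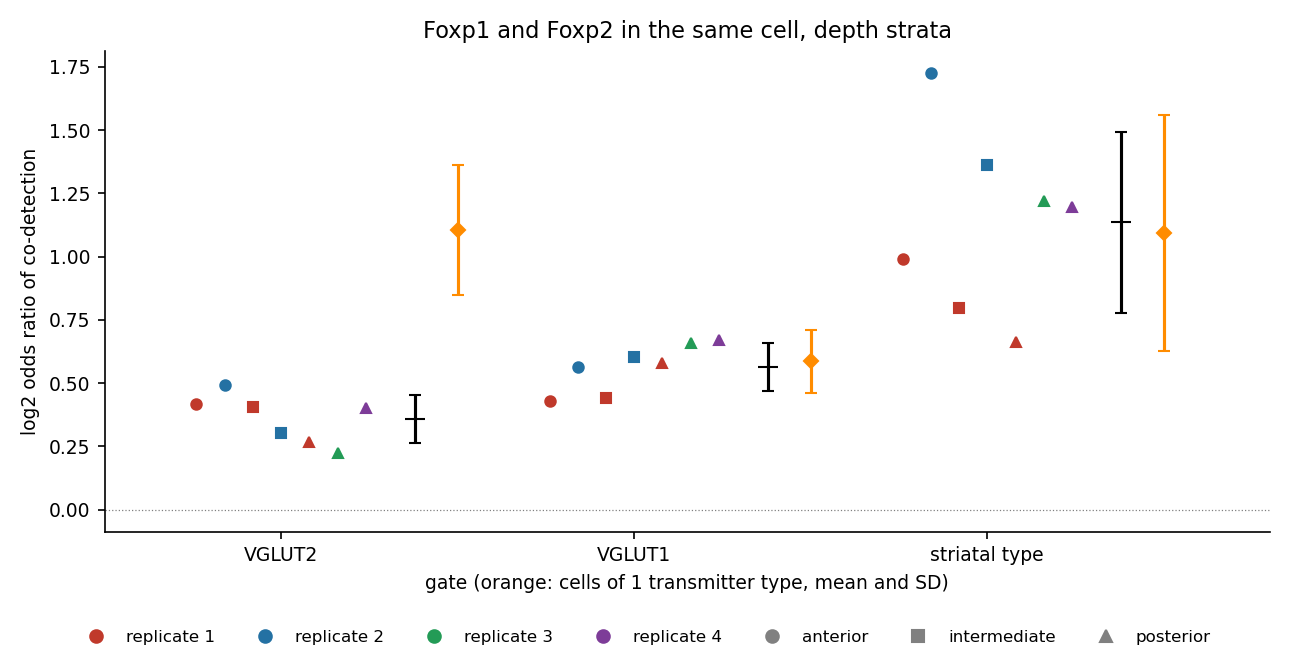
Log2 odds ratio of finding Foxp1 and Foxp2 in the same cell, within depth strata, in each of 7 sections by gate; colour gives the replicate number, shape the position, the black bar the mean and SD over all cells of the gate, and the orange diamond the mean and SD for cells of 1 transmitter type. VGLUT2 cells move from 0.36 to 1.10 with that restriction, whereas VGLUT1 cells stand at 0.56 and 0.59 and striatal type cells at 1.14 and 1.09.

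Position was compared within each gate over 2 anterior and 3 posterior sections. On simulated data this test recovered 50% of changes of 1 on the log2 scale and 6.67% of smaller ones. A position difference that did not pass is thus not shown to be absent. Foxp1 in striatal type cells was 6.94 and 8.81 transcripts per cell in anterior replicates 1 and 2, and 6.77, 6.72 and 6.45 in posterior replicates 1, 3 and 4. The posterior sections lay below both anterior sections, and anterior replicate 2 stood highest. Foxp1 fell by 0.46 on the log2 scale from anterior to posterior (SE 0.11, edgeR, adjusted p = 0.0389), in a comparison where 7.74% of genes were called. With the replicate number as a block it fell by 0.27, which did not pass (edgeR, adjusted p = 0.208). Without anterior replicate 2 it stood at -0.24 (edgeR, adjusted p = 0.305), and calls were also lost without posterior replicate 1 (-0.46, adjusted p = 0.0606), 3 (-0.48, 0.0815) or 4 (-0.43, 0.160). Striatal type cells of 1 transmitter type gave -0.39 (edgeR, adjusted p = 0.110).

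Foxp2 in striatal type cells stood at -0.14 ± 0.07 from anterior to posterior (edgeR, adjusted p = 0.212). In VGLUT1 cells Foxp1 stood at -0.15 ± 0.06 (edgeR, adjusted p = 0.244) and Foxp2 at -0.22 ± 0.07 (edgeR, adjusted p = 0.124), where 0.337% of genes were called. In VGLUT2 cells Foxp1 stood at -0.19 ± 0.19 and Foxp2 at 0.14 ± 0.44 (edgeR, adjusted p = 0.992 for both), and 0.0% of genes were called (edgeR, with 2 genes at an unadjusted p under 0.05). With the replicate number as a block Foxp2 in VGLUT2 cells stood at 0.42 ± 0.09, which did not pass either (edgeR, adjusted p = 0.0691). No intermediate to anterior difference of either gene passed, and 0.0% of genes were called in each gate (edgeR, with 12 genes at an unadjusted p under 0.05 in striatal type cells and 0 in the others). The anterior to posterior difference was not shown to differ between gates for either gene: the largest interaction was 0.41 ± 0.38, for Foxp2 in VGLUT2 against VGLUT1 cells (edgeR, adjusted p = 0.991, with 0.0% of genes called and 9 at an unadjusted p under 0.05).

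Cells were next placed in 24 exclusive classes by their highest marker, none of which was Foxp1 or Foxp2. In neurons the marker needed at least 3 transcripts and no tie. VGLUT2 and VGLUT1 classes allowed at most 2 transcripts of Gad1 and Gad2 together. Striatal type and GABAergic classes allowed at most 2 of Slc17a6 and Slc17a7. GABAergic classes needed at least 5 of Gad1 and Gad2 and no Ppp1r1b. Non-neuronal classes needed a marker list sum of at least 10 and at most 2 transcripts of these transmitter genes. Many cells met no class. Foxp1 was highest in striatal type cells led by Pdyn, the prodynorphin gene of direct pathway neurons, at 9.85 ± 0.880 transcripts per cell (SD, n = 7). Striatal type cells led by Penk, the proenkephalin gene of indirect pathway neurons, followed at 8.59 ± 1.29. In 6 of 7 sections the Pdyn class was the higher of the pair (exact permutation test, adjusted p = 0.144 over 23 neighbours). Next came VGLUT2 cells led by the calcium-binding protein gene Calb1 at 5.96 ± 1.26, and by the transcription factor gene Bhlhe22 at 5.53 ± 1.66. The latter class also held 19.6 ± 2.36 transcripts of Slc17a7 per cell, and with Slc17a7 at most 2 its Foxp1 was 1.04 ± 0.428 over 5 sections. The Calb1 class gave 4.26 ± 1.87 in that case. VGLUT2 cells led by Pvalb, the parvalbumin gene, gave 3.48 ± 0.766 at first and 1.12 ± 0.329 with that limit.

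Among VGLUT1 classes Foxp1 was at 4.66 ± 0.469 in cells led by Fezf2, a factor of deep layer projection neurons, at 3.88 ± 0.299 with Rorb, a layer 4 factor, at 3.47 ± 0.349 with Cux2, an upper layer factor, and at 3.0 ± 0.349 with Rprm, a layer 6 gene. Cplx3 cells gave 2.10 ± 0.141 and Prox1 cells 2.08 ± 0.229. The Prox1 class also held the oligodendrocyte gene Opalin at 8.53 ± 1.40 per cell, against 9.21 ± 0.400 in the oligodendrocyte class. The part of oligodendrocyte transcripts in its Foxp1 and Foxp2 levels was not tested. Foxp1 was also at 2.38 ± 0.181 in the endothelial class, at a median of 184 transcripts per cell. It stood at 0.783 to 1.07 in GABAergic classes led by Pvalb, Sst, Vip or Lamp5, and at 0.761 ± 0.149 in astrocytes and 0.764 ± 0.0989 in oligodendrocytes. No neighbours in the order of Foxp1 levels differed after adjustment (lowest exact permutation adjusted p = 0.0898), so the order is a description.

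Foxp2 had another order. It was highest in the striatal Pdyn class at 5.48 ± 0.380 transcripts per cell (SD, n = 7), where the lowest section gave 4.94 and the highest 6.04. VGLUT1 cells led by Rprm followed at 3.98 ± 0.391 (3.44 to 4.45), then the striatal Penk class at 3.05 ± 0.215 (2.78 to 3.39) and the VGLUT2 Necab1 class at 3.01 ± 1.08 (1.50 to 4.44). The Pdyn class was above the Rprm class, and the Rprm class above the Penk class, in 7 of 7 sections each (exact permutation test, adjusted p = 0.180 over 23 neighbours). GABAergic cells led by Lamp5, a gene of neurogliaform interneurons, gave 2.17 ± 0.869. They ranged from 0.923 in anterior replicate 1 to 3.52 in intermediate replicate 2. Foxp2 was lowest in VGLUT1 Cux2 cells, at 0.139 ± 0.0401, below the oligodendrocyte class at 0.175 ± 0.0348. VGLUT1 Rorb cells gave 0.290 ± 0.0649, Fezf2 cells 1.15 ± 0.208 and Cplx3 cells 1.50 ± 0.205.

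The classes paired the genes in different ways. VGLUT1 Cux2 and Rorb cells held Foxp1 at 3.47 and 3.88 per cell with Foxp2 at 0.139 and 0.290, whereas Rprm cells held more Foxp2 than Foxp1 transcripts. Foxp2 also exceeded Foxp1 in VGLUT2 cells led by the substance P receptor gene Tacr1 (1.43 ± 0.674 against 0.830 ± 0.244, from 247 cells) and in GABAergic Lamp5 cells. The endothelial gene Cldn5 stood at 1.63, 1.82 and 0.515 per cell in VGLUT1 Cux2, Rorb and Rprm cells, and at 9.08 in the endothelial class. That class held Foxp1 at 2.38 and Foxp2 at 0.232 per cell. The part of vascular transcripts in the pairing was not tested. Among VGLUT2 classes Foxp2 ran from 0.176 ± 0.157 in cells led by C1ql2, 0.313 ± 0.0988 in Bhlhe22 cells and 0.412 ± 0.200 in Car4 cells to the Necab1 class above. The C1ql2 class also held the astrocyte gene Aqp4 at 8.85 ± 2.66 per cell, against 8.94 ± 0.558 in the astrocyte class. Cldn5 stood at 2.41 ± 0.455 in VGLUT2 Car4 cells. The part of such transcripts in these levels was not tested. With Slc17a7 at most 2 the order of the low classes turned. Car4 cells were lowest at 0.340 ± 0.0682, C1ql2 cells gave 0.508 ± 1.05, where intermediate replicate 2 stood at 2.88 and the other sections at 0.0625 to 0.167, and Bhlhe22 cells gave 0.881 ± 1.04 over 5 sections. The Necab1 class stayed highest at 3.57 ± 1.28. The fewest cells of a section were 15 for the C1ql2 class and 10 for the Tacr1 class. Because levels of different genes depend on the probes, the excess of Foxp2 is a difference from other classes and not a measure of protein or mRNA ratio.

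**Figure D4:**
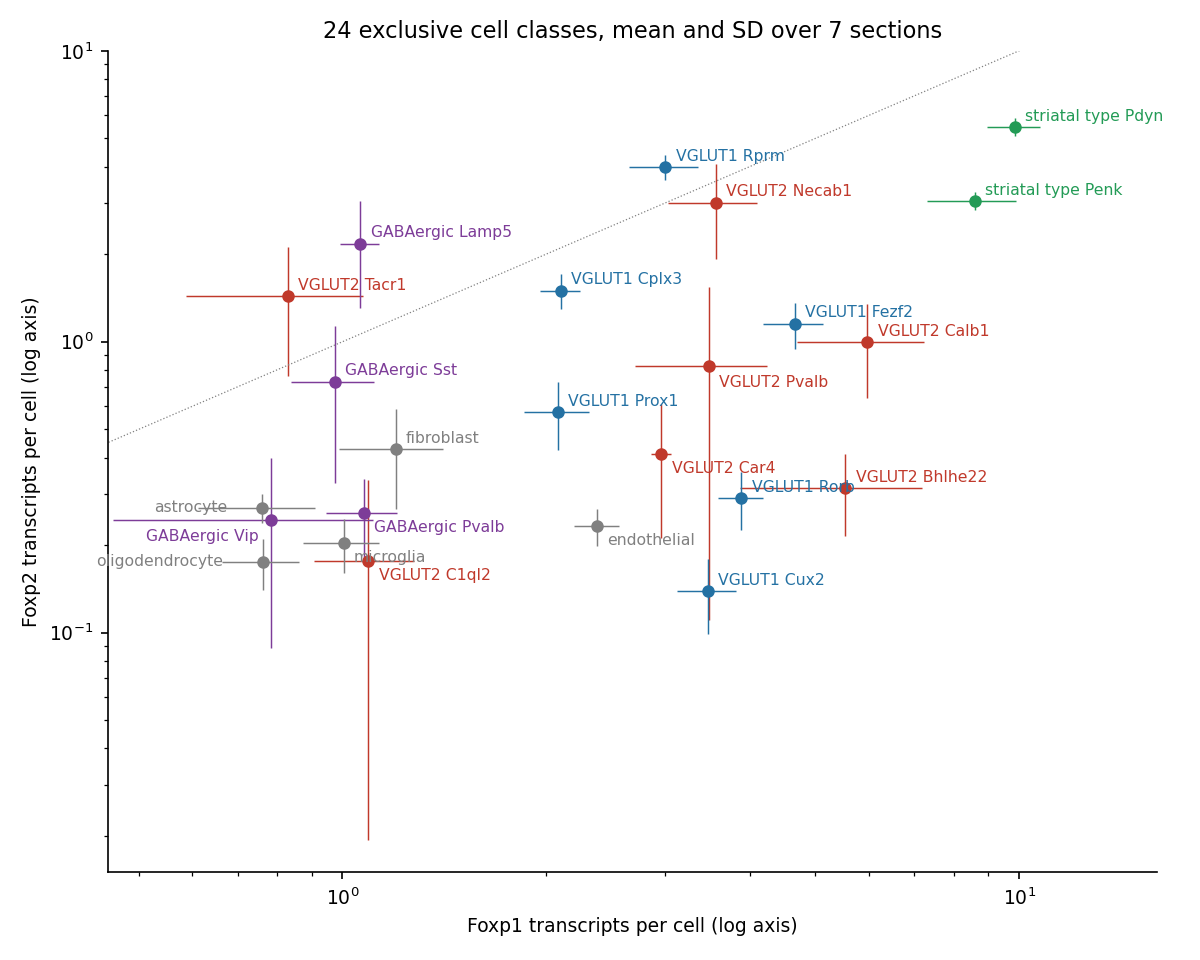
Foxp1 (horizontal) against Foxp2 (vertical), transcripts per cell on log axes, for 24 exclusive cell classes, with points and bars for the mean and SD over 7 sections; the dotted line marks equal transcripts. The striatal Pdyn class is highest for both genes (9.85 and 5.48), VGLUT1 Rprm, VGLUT2 Tacr1 and GABAergic Lamp5 cells lie above the line, and VGLUT1 Cux2 cells lie lowest for Foxp2 (0.139).

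Within each gate, cells with at least 3 Foxp2 transcripts were compared with cells that had none, on counts summed per section (edgeR, section as a block). Levels below are transcripts per cell. Differences are on the log2 scale after TMM scaling of the summed counts, so they need not equal the ratio of the levels or of shares. In VGLUT1 cells (13896 Foxp2-high, 82771 Foxp2-zero, median depth 518 and 444), 86.5% of genes were called. Of 9 tested genes of a list for layer 6 and deep cortex, 9 were higher and 0 lower in Foxp2-high cells, with a median of 2.48 against -0.09 over all genes. Syt6, a synaptotagmin gene of layer 6 neurons, was at 4.14 ± 0.138 per cell (SD, n = 7) in Foxp2-high and 0.239 ± 0.0197 in Foxp2-zero cells, a difference of 4.46 ± 0.04 (SE, edgeR, adjusted p = 2.34e-14). Rprm was higher by 3.15, the neurexophilin gene Nxph3 by 3.19, the co-repressor gene Tle4 by 2.55 and Fezf2 by 1.77, each in 7 of 7 sections. The stress response gene Gadd45a was higher by 3.47 and the homeobox gene Meis2 by 1.35.

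Genes of upper layers went both ways, most of them lower. Of 8 tested, 6 were lower and 2 higher in Foxp2-high VGLUT1 cells, with a median of -1.04. Among the 6, the exchange factor gene Rasgrf2 gave -2.36 ± 0.05 (edgeR, adjusted p = 1.82e-11), Calb1 -2.18 and Rorb -1.04. Bhlhe22 gave -2.21, the adhesion gene Nectin3 -1.61 and Car4 -2.31. The axon guidance and adhesion list split, with 8 of 18 higher and 7 lower, and the semaphorin genes Sema5b (2.08) and Sema3a (1.34) were among the higher. Foxp1 itself was at 4.65 ± 0.186 per cell in Foxp2-high and 3.35 ± 0.250 in Foxp2-zero VGLUT1 cells, higher by 0.82 ± 0.04 (edgeR, adjusted p = 6.79e-09, 7 of 7 sections). With 1 transmitter type it was higher by 0.61, where 87.8% of genes were called.

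In VGLUT2 cells (6524 Foxp2-high, 28382 Foxp2-zero, median depth 572.5 and 492), 56.8% of genes were called. Of 18 midline and anterior thalamic genes 8 were higher and 6 lower in Foxp2-high cells, with a median of 0.19 against -0.01 over all genes. With 1 transmitter type 10 were higher and 4 lower, with a median of 0.82. Ramp3, a receptor accessory protein gene, was at 2.71 ± 1.59 against 0.301 ± 0.137 per cell, higher by 3.04 ± 0.16 (edgeR, adjusted p = 2.06e-07). Necab1 was at 12.7 ± 3.48 against 2.15 ± 0.258, higher by 2.43 ± 0.12 (edgeR, adjusted p = 2.06e-07). Slitrk6, a synaptic adhesion gene, was higher by 2.32, Spp1 (osteopontin) by 2.22, Pdyn by 1.87, Necab2 by 1.70 and Calb1 by 0.79. These kept their direction and call in cells of 1 transmitter type, at 2.68 for Ramp3, 3.15 for Necab1 and 1.68 for Calb1.

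The cortical lists went both ways in VGLUT2 cells. Of 8 upper layer genes 3 were higher and 3 lower in Foxp2-high cells (median -0.25), and with 1 transmitter type 6 were higher and 0 lower (median 0.44). Of 9 layer 6 and deep cortical genes 2 were higher and 3 lower (median 0.23), and with 1 transmitter type 4 were higher and 1 lower (median 0.20). Among single genes lower in Foxp2-high cells, Lamp5 stood at -2.71, Neurod6 at -2.53, Prdm8 at -2.46 and the activity gene Arc at -2.02. In cells of 1 transmitter type Lamp5 stood at -0.61 (edgeR, adjusted p = 0.162) and Prdm8 at -0.20 (0.892), while Neurod6 stood at -1.61 (0.00608) and Arc at -0.54 (0.00180). The same restriction changed Foxp1. It was at 3.64 ± 0.548 per cell in Foxp2-high and 3.55 ± 0.429 in Foxp2-zero cells of the full gate, a difference of -0.06 ± 0.08 (edgeR, adjusted p = 0.520). In cells of 1 transmitter type it was higher in Foxp2-high cells by 1.08 (edgeR, adjusted p = 2.25e-05), where 60.2% of genes were called.

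In striatal type cells (18247 Foxp2-high, 19658 Foxp2-zero, median depth 486 and 482), 85.1% of genes were called. The 3 tested genes of the striatal projection list, Meis2, Pdyn and Penk, were all higher in Foxp2-high cells, by 1.77, 1.99 and 0.95. In cells of 1 transmitter type Penk stood at 0.15 (edgeR, adjusted p = 0.00860). Meis2 was at 24.8 ± 1.63 against 10.7 ± 0.989 per cell. Syt6 (2.30), the calmodulin regulator gene Pcp4 (1.96), the phosphodiesterase gene Pde7b (1.82), Sema3e (1.84), Sema5b (1.82) and Bcl11b, a factor of striatal projection neurons, (1.60) were higher too. Foxp1 was at 9.93 ± 1.41 against 5.13 ± 0.422 per cell, higher by 1.50 ± 0.06 (edgeR, adjusted p = 1.0e-09). Restricted to 1 transmitter type it was higher by 1.34, where 87.2% of genes were called.

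Of 11 tested interneuron genes, 0 were higher and 9 lower in Foxp2-high striatal type cells (1 and 8 with 1 transmitter type). Pvalb gave -1.71 and Btbd11 -1.61, and both stayed lower with 1 transmitter type (-2.28 and -1.88). Bhlhe22 (-3.26), Cbln4 (-2.12) and Nrn1 (-2.04) were lower as well. With 1 transmitter type Nrn1 turned to 0.10 (edgeR, adjusted p = 0.252) and Bhlhe22 stood at -0.37 (0.0144).

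**Figure D5:**
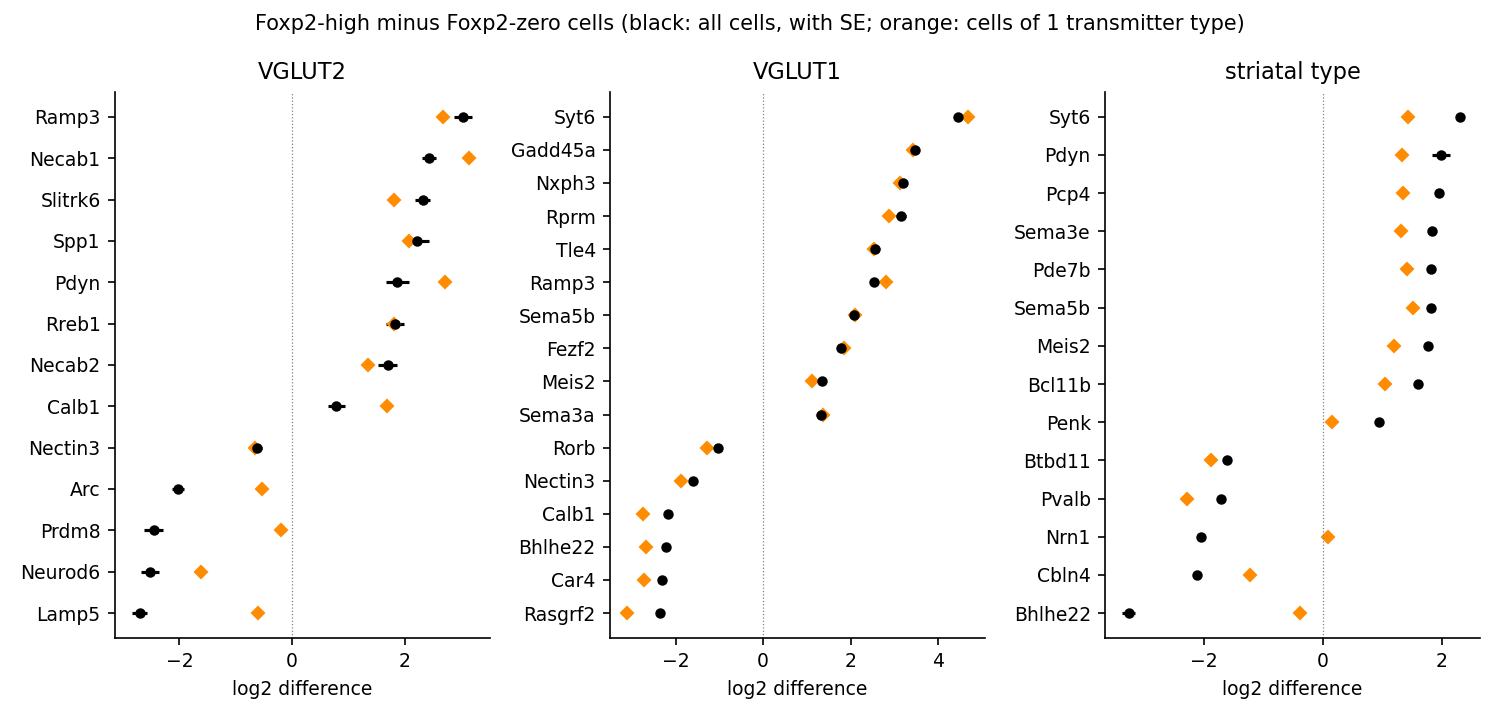
Log2 difference between Foxp2-high (at least 3 transcripts) and Foxp2-zero cells for named genes in the VGLUT2, VGLUT1 and striatal type gates; black points with SE are all cells of the gate (edgeR), orange diamonds cells of 1 transmitter type. Layer 6 genes such as Syt6 (4.46) lead in VGLUT1 cells and Ramp3 (3.04) and Necab1 (2.43) in VGLUT2 cells, and Prdm8 in VGLUT2 cells moves from -2.46 to -0.20 with the restriction.

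The same comparison was made for Foxp1, between cells with at least 3 of its transcripts and cells with none. Foxp1-zero cells were shallower: median depth was 617 against 389 in VGLUT2, 543 against 323.5 in VGLUT1 and 481 against 407 in striatal type cells. In striatal type cells (38380 Foxp1-high, 3794 Foxp1-zero) 82.8% of genes were called, and the 3 striatal projection genes were higher in Foxp1-high cells, Penk by 1.20, Pdyn by 1.44 and Meis2 by 1.02. Pcp4 (2.15), Pde7b (2.11), Bcl11b (1.61) and the ephrin receptor gene Epha4 (1.50) were also higher. The activin receptor-like gene Acvrl1 was higher by 2.42. The endothelial class held Foxp1 at 2.38 per cell, and the part of vascular transcripts in this comparison was not tested. Calb2, the calretinin gene, was at 0.328 ± 0.0583 in Foxp1-high and 1.87 ± 0.564 per cell in Foxp1-zero cells, a difference of -2.49 ± 0.09 (edgeR, adjusted p = 2.13e-09). Nr2f2, a factor of caudal interneurons, gave -2.05, Nrp2 -1.86 and Adarb2 -1.63. Foxp2 was at 3.03 ± 0.155 in Foxp1-high and 2.37 ± 0.418 in Foxp1-zero cells, 0.36 ± 0.13 on the log2 scale (edgeR, adjusted p = 0.0289, higher in 4 of 7 sections). That call was lost without intermediate replicate 2 (0.34, adjusted p = 0.0634) and without posterior replicate 3 (0.34, 0.0648). It was also lost with library size in place of TMM scaling (0.08, 0.555). With 1 transmitter type it was 0.43 (edgeR, adjusted p = 0.0101), where 78.7% of genes were called.

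In VGLUT1 cells (61327 Foxp1-high, 16322 Foxp1-zero) 86.8% of genes were called. The Wnt agonist gene Rspo1 was higher by 1.76, the cerebellin gene Cbln4 by 1.72, the formin gene Fhod3 by 1.46 and the neurturin receptor gene Gfra2 by 1.24. Garnl3 was higher by 0.88 and Fezf2 by 0.79. Ndst4 (-2.57), Htr2c (-1.60), Nrp2 (-1.51) and the astrocyte gene Gfap (-1.43) were lower. Of 9 layer 6 and deep cortical genes 5 were higher and 3 lower, and of 8 upper layer genes 4 were higher and 1 lower (6 and 1 with 1 transmitter type). Foxp2 was at 1.37 ± 0.0524 against 0.448 ± 0.0700 per cell, higher by 1.11 ± 0.06 in Foxp1-high cells (edgeR, adjusted p = 1.27e-08, 7 of 7 sections). In cells of 1 transmitter type it was higher by 1.18, where 83.1% of genes were called.

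In VGLUT2 cells (17914 Foxp1-high, 10400 Foxp1-zero) 76.7% of genes were called. Pamr1 was higher by 1.84, and the neurotensin gene Nts (-2.59), Tacr1 (-2.31), Ebf3 (-2.46), Ndst4 (-2.68), Nr2f2 (-1.57), Penk (-1.32) and Meis2 (-1.03) were lower in Foxp1-high cells. All 8 kept direction and call with 1 transmitter type. Lamp5 was higher by 2.57 in the full gate, but with 1 transmitter type it was lower at -1.31 (edgeR, adjusted p = 0.000520). Foxp2 stood at 0.05 ± 0.10 (edgeR, adjusted p = 0.645) in the full gate and was higher by 1.29 in Foxp1-high cells of 1 transmitter type (edgeR, adjusted p = 1.01e-05), where 65.3% of genes were called.

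Cells with at least 3 transcripts of 1 factor and none of the other were compared last. Foxp1-only cells were many and Foxp2-only cells few: 41288 and 818 in the VGLUT1 gate, 12458 and 879 in the striatal type gate, and 11045 and 1156 in the VGLUT2 gate. In VGLUT1 cells 71.2% of genes were called, and all 9 tested layer 6 and deep cortical genes were lower in Foxp1-only cells (median -3.05 against 0.04 over all genes). With 1 transmitter type 71.1% of genes were called, and all 9 were again lower. Syt6 gave -4.10 ± 0.09 (edgeR, adjusted p = 2.89e-18), Rprm -3.83, Nxph3 -3.72, Cplx3 -3.36, Ccn2 -3.05 and the cofactor gene Zfpm2 -2.92. Rspo1 gave 3.33, Car4 2.77 and Rasgrf2 2.50 on the Foxp1-only side, where 6 of 8 upper layer genes were higher and 2 lower. The endothelial genes Cldn5 (2.74), Cd93 (2.92) and Sox17 (2.73) were higher there as well. Cldn5 was at 2.06 ± 0.221 per cell in Foxp1-only and 0.196 ± 0.0814 in Foxp2-only cells, and Foxp1 was at 2.38 in the endothelial class. The part of vascular transcripts in the Foxp1-only cells was not tested.

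In striatal type cells 73.2% of genes were called. Foxp2-only cells had more Tmem255a (-2.63), Sema5b (-2.43), Adarb2 (-2.08 ± 0.14, edgeR, adjusted p = 3.57e-08) and Nrp2 (-2.03), and Foxp1-only cells more Pvalb (1.87), Epha4 (1.68) and Calb1 (1.56). These kept their direction and call with 1 transmitter type, where 64.5% of genes were called. Of the 3 striatal projection genes 0 were higher and 3 lower in Foxp1-only cells (median -0.57 against 0.08 over all genes). With 1 transmitter type 1 was higher and 1 lower (median 0.25). Of 11 interneuron genes 7 were higher and 3 lower, against 4 and 2 with 1 transmitter type. The endothelial genes Sox17 (2.83) and Emcn (2.46) were again higher in Foxp1-only cells. In VGLUT2 cells 69.7% were called. Calb2 was at 11.3 ± 2.90 per cell in Foxp2-only and 2.22 ± 0.922 in Foxp1-only cells, a difference of -2.46 ± 0.28 (edgeR, adjusted p = 2.77e-05). Th (-3.37), the tyrosine hydroxylase gene, Ebf3 (-2.44), Pdyn (-2.19), Necab1 (-1.54) and Meis2 (-1.34) were on the same side. These 6 kept direction and call with 1 transmitter type, where 49.5% of genes were called. Slc17a7 (3.12) was higher in Foxp1-only cells of the full gate, and the limit to 1 transmitter type caps this gene at 2 transcripts, so it is no test of that difference.

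The genes whose sums over 7 sections and 3 gates ran most like Foxp1 were Mapk4 (Pearson r = 0.958 over 21 sums), Pde7b (0.951), Meis2 (0.949), Anks1b (0.945) and Neto2 (0.935). For Foxp2 they were Pdyn (0.967), Cdh13 (0.952), Penk (0.931), Kctd12 (0.928) and Wfs1 (0.918). The least like Foxp1 were Pcsk5 (-0.963), Rxfp1 (-0.952) and Cpne4 (-0.951), and the least like Foxp2 were Car4 (-0.978), Rspo3 (-0.951) and Adcy2 (-0.947). The sums of 1 section share its depth, and the 3 gates set most of the spread, so these values are a description. Foxp1 and Foxp2 correlated with each other at 0.806 over the 21 sums. Over the 7 sections of 1 gate the value was 0.935 in VGLUT1, 0.388 in striatal type and -0.882 in VGLUT2 cells, where the sections of replicate 1 stood apart.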

How the data were processed

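Transcripts of 297 genes were measured in situ with Xenium in 7 sections. The authors deposited counts, whole numbers per gene and cell with no normalization, and these summed to the deposited total in 100% of cells. The submitters' processing notes list Seurat. How cells were segmented or filtered, and the genome build, are not stated in the sources read here. Transcripts of neighbours can fall into a cell's outline, and doublets were not called. Sections shared 8 barcodes, of which 0 had identical counts.

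Gates, 24 marker classes and classes by Foxp1 or Foxp2 count were set from the counts, summed per section and compared with edgeR 4.0.16 in R 4.3.3: filterByExpr, TMM scaling and a quasi-likelihood F test, blocked on the section except for position, with Benjamini-Hochberg adjustment at 0.05 over all genes tested. A gene that defines a split was left out of it. Ratios, and Mantel-Haenszel odds ratios over 10 depth strata, were compared with two-sided exact sign-flip permutation tests over sections (numpy 2.4.6). The tests were tried on simulated data with known changes. Same-numbered sections tended to deviate together (correlations of 0.234 to 0.869), so the replicate number served as a block in an alternative. Different-numbered sections gave -0.869 to 0.261, which overlaps that range at its low end. With 2 anterior and 2 intermediate sections many of these values mirror the same-numbered ones. In VGLUT2 cells anterior replicate 1 gave 0.857 with intermediate replicate 1 and -0.857 with intermediate replicate 2. The contrast of same and different numbers was thus partly fixed in advance and is no separate evidence of pairing.

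The members, gates and gene lists were chosen with earlier results of these data known. Named genes were drawn, for each comparison within a gate, from the 8 largest differences per direction that passed and had one sign in all sections, and from up to 3 passing genes per list. For likeness the 5 highest and 3 lowest correlations were taken. Alternatives covered DESeq2 1.42.0, library size scaling, no filter on low counts, a floor of 200 transcripts, other gate and class minimums, depth matching and thinning, slide 1 alone, the replicate block and leaving out sections. No sequences were used here.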

Additional observations from a re-analysis of the deposited data

Results flagged for a closer look

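Among 60 sets of 7 section values, 4 had an end value far from its neighbours, where chance gives about 1 in 20. Foxp2 in the VGLUT2 C1ql2 class was 0.518 transcripts per cell in intermediate replicate 2, against 0.0741 to 0.202 in the other sections, from 166 cells. In the VGLUT1 Fezf2 class the same section was highest for Foxp1, at 5.59, and for Foxp2, at 1.59. Foxp1 in the GABAergic Vip class was 1.46 in posterior replicate 4, from 26 cells.

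The log2 odds ratio of finding Foxp1 and Foxp2 together differed between all 3 pairs of gates by the exact permutation test over sections: -0.206 for VGLUT2 minus VGLUT1, 0.778 for striatal type minus VGLUT2 and 0.572 for striatal type minus VGLUT1. The cells compared are those of the full gates, and the first of these turned to 0.518 in cells of 1 transmitter type.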

How the results depend on the processing

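Of 391 alternatives to the 50 results that answer a comparison, leaving out sections aside, 341 kept direction and side of the threshold. Of 1943 alternatives for 147 single genes and classes, 1915 did. Cells of 1 transmitter type and the removal of all 3 sections of replicate 1 were chosen after seeing the data. Where a value moved, the cause was not tested. Values are log2 differences.

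VGLUT2 minus VGLUT1 gave -0.42 for Foxp1 (edgeR, adjusted p = 0.000629) and 0.35 for Foxp2 (0.0496) at doubled gate minimums, and -0.41 for Foxp1 with 1 transmitter type. Foxp2 gave -0.011 with library size and -0.10 in cells of 1 gate only. On slide 1 the posterior minus anterior difference in VGLUT2 cells was 0.00281 for Foxp1 and -0.26 for Foxp2. Foxp2 in VGLUT1 cells gave -0.21 with DESeq2 (adjusted p = 0.0244). Intermediate minus anterior Foxp1 in VGLUT1 cells, -0.00388 as reported by edgeR, gave 0.00666 with DESeq2, 0.00751 with library size, 0.00315 at doubled minimums, 0.0113 both in cells of 1 gate and of 1 transmitter type, 0.00196 from 200 transcripts and 0.00328 on slide 1. Posterior minus anterior Foxp1 in striatal type cells gave -0.40 at doubled minimums, -0.39 both in cells of 1 gate and of 1 transmitter type, and -0.43 on slide 1. Foxp2 gave 0.00851 in those 2 restrictions.

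With 1 transmitter type Foxp1 in Foxp2-high VGLUT2 cells gave 1.08, and Nrn1 in striatal type cells 0.10. In Foxp1-high VGLUT2 cells Lamp5 gave -1.31 and Foxp2 1.29, and Foxp2 gave -0.10 with library size. Foxp2 in Foxp1-high striatal type cells gave 0.078 with library size and 0.28 with at least 2 transcripts.

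The ratio gave -0.084 for VGLUT2 minus VGLUT1 in cells of 1 gate. Striatal type minus VGLUT2 gave -0.46 at doubled minimums and -0.47 with 1 transmitter type. Striatal type minus VGLUT1 gave 0.30 at doubled minimums and 0.23 both in cells of 1 gate and of 1 transmitter type. Co-detection between VGLUT2 and VGLUT1 gave -0.016 at doubled minimums, 0.19 in cells of 1 gate and 0.52 with 1 transmitter type. Striatal type minus VGLUT2 gave 0.33, 0.32 and -0.010 in that order. Striatal type minus VGLUT1 gave 0.31 at doubled minimums, 0.51 both in cells of 1 gate and of 1 transmitter type, and 0.25 with no depth strata. Of these co-detection values only VGLUT2 minus VGLUT1, in the other direction, and striatal type minus VGLUT1 passed, both with 1 transmitter type. Thinned, co-detection in VGLUT2 cells was 0.046.

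With the replicate block striatal type Foxp1 gave -0.27 from anterior to posterior. By replicate number the ratio of striatal type minus VGLUT1 cells gave 0.46, and co-detection gave 0.35, 0.60 and 1.19 in VGLUT2, VGLUT1 and striatal type cells, with differences of -0.25 (VGLUT2 minus VGLUT1), 0.85 (striatal type minus VGLUT2) and 0.59 (striatal type minus VGLUT1). With 4 numbers the exact permutation test cannot go below 0.125. The replicate block changed no other call of these results.

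Leaving out sections gave these ranges. Foxp2, VGLUT2 minus VGLUT1, ran from -0.065 to 0.43. From anterior to posterior, Foxp2 in VGLUT2 cells ran from -0.32 to 0.83, Foxp1 there from -0.36 to -0.017 and striatal type Foxp1 from -0.65 to -0.24. From anterior to intermediate, VGLUT2 Foxp1 ran from -0.15 to 0.22 and Foxp2 from -0.54 to 0.82, VGLUT1 Foxp1 from -0.074 to 0.070 and Foxp2 from -0.037 to 0.069, and striatal type Foxp1 from -0.32 to 0.084. Position differences between VGLUT2 and VGLUT1 ran from -0.13 to 0.10 (Foxp1) and -0.14 to 1.11 (Foxp2), between striatal type and VGLUT2 from -0.66 to 0.19 and -0.85 to 0.11, and between striatal type and VGLUT1 from -0.56 to 0.084 and -0.028 to 0.26. Foxp2 in Foxp1-high cells ran from -0.12 to 0.12 (VGLUT2) and 0.22 to 0.45 (striatal type). Ratio differences ran from 0.028 to 0.65 (VGLUT2 minus VGLUT1), -0.28 to 0.42 (striatal type minus VGLUT2) and 0.36 to 0.46 (striatal type minus VGLUT1). Co-detection ran from 0.34 to 0.38, 0.55 to 0.62 and 1.04 to 1.38 in VGLUT2, VGLUT1 and striatal type cells, and its differences from -0.27 to -0.17, 0.70 to 1.02 and 0.47 to 0.75, in the order given above. With 6 sections or fewer these exact tests may not reach the threshold.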
